A study of Mus musculus with 6 samples.

Results

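The natriuretic peptide system of the mouse aorta was followed in 10 genes, which were all found by their NCBI identifiers among the 18191 genes listed for the series. They encode the 3 receptors (*Npr1*, *Npr2* and *Npr3*), the 3 peptides (*Nppa*, *Nppb* and *Nppc*), 2 proteases that activate the peptide precursors (*Corin* and *Furin*) and 2 peptidases that degrade the peptides (*Mme* and *Ide*). The members were chosen by name as parts of this system and not by their values, although earlier results of these data were known. RNA of whole aortas from male mice was compared between 3 wild type (WT) libraries and 3 libraries of *Npr1*+/- mice, in which 1 copy of *Npr1* had been disrupted by CRISPR-Cas9. The part of *Npr1* that was disrupted, the ages and the strain are not given in the sources used here, and RNA of the disrupted copy, if made, would be counted with the gene. The question was whether the other receptors, the peptides or the peptidases move when *Npr1* is reduced.

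Atrial and brain natriuretic peptide (ANP and BNP) are hormones of the heart, and C-type natriuretic peptide (CNP) is made in endothelium and other tissues. ANP and BNP bind NPR1 and CNP binds NPR2, and both receptors carry a guanylyl cyclase that makes cyclic guanosine monophosphate (cGMP), which relaxes vascular smooth muscle. NPR3 binds all of these peptides, has no cyclase and removes them from the circulation. Corin cuts the precursor of ANP at the cell surface, furin cuts those of BNP and CNP, and neprilysin (*Mme*) and the insulin-degrading enzyme (*Ide*) break the peptides down.

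The peptide genes and *Npr1* lay at opposite ends of the levels in the aorta, so the 250 bases before an annotated start of each are shown here. All 10 genes were matched in the RefSeq promoter table of GRCm38.p6, 8 of them with 1 start. The start of *Nppb* in this table lies within the gene as GENCODE places it. Capitals mark TATAAA, the core of a TATA box, and TGATAA, a core to which GATA factors bind, each searched on both strands.
Npr1 promoter, chr3:90465867-90466116, minus strand: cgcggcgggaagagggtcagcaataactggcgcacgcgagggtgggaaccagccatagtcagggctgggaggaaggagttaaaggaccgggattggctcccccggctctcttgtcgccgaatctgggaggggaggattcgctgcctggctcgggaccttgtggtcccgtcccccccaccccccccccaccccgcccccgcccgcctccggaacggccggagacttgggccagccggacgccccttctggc
Nppa promoter, chr4:148000472-148000721, plus strand: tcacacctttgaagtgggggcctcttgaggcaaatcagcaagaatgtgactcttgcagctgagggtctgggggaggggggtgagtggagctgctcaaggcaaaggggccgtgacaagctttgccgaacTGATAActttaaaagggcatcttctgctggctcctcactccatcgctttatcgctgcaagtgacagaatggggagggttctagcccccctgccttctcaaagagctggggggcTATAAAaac
Nppb promoter, chr4:147985650-147985899, plus strand: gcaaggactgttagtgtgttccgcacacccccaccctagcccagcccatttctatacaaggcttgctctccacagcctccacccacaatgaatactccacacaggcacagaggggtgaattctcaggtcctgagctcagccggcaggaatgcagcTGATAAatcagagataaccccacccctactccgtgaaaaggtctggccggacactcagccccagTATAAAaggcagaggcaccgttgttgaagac
Nppc promoter, chr1:86670574-86670823, minus strand: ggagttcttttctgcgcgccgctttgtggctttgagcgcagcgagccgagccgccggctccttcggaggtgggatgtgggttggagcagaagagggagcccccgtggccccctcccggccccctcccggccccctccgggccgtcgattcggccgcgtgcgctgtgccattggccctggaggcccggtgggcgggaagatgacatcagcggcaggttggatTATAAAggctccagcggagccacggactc
TATAAA was found in the windows of all 3 peptide genes, beginning 9, 31 and 29 bases before the start of *Nppa*, *Nppb* and *Nppc*, whereas 12.4% of all 32851 windows of this length held it. TGATAA was found 122 bases before *Nppa* and 95 bases before *Nppb*, against 7.9% of all windows, and the 2 motifs occurred together in 1.7% of them. None of the 3 receptor windows held either motif, and among the enzymes only 1 of the 2 windows of *Furin* did (TATAAA). The window of *Npr1* was rich in G and C (70.4%, with 21 CpG dinucleotides), as was that of *Nppc* (69.2%, 24 CpG), where the median of all windows was 52.4% with 6 CpG. *Nppb* and *Nppa* are neighbors on chromosome 4, where 13517 bp separate the end of the first from the start of the second.

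Libraries held from 13510970 to 16664343 estimated counts, and a floor of 3 counts equals 0.18 to 0.222 CPM, counts scaled to library size. Libraries of both genotypes are numbered 1 to 3, and both libraries numbered 1 stood apart from the others in their cell type markers. The summed CPM of 7 smooth muscle markers was 20970 in WT 1 and 12830 in *Npr1*+/- 1, and between 33530 and 38460 in the other 4 libraries. That of 8 adipocyte markers was 3976 and 5538 in these 2 libraries and between 640.5 and 1518 in the others, and the 8 endothelial markers summed to between 493.4 and 857.6 in WT and between 903.5 and 1414 in *Npr1*+/- libraries. *Th* and *Dbh*, which make noradrenaline in sympathetic neurons, reached 70.3 and 132 CPM in *Npr1*+/- 1 and at most 0.126 and 0.569 in the other 5 libraries. In whole tissue, fewer cells of a type cannot be told apart from less RNA per cell. The part of these differences in the results below was not tested, and results are also given without both libraries numbered 1.

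In fragments scaled by gene length and library size (FPKM), *Npr1* was the highest of the 10 genes in WT aortas, followed by *Npr2*, *Furin*, *Ide*, *Mme*, *Npr3*, *Nppa* and *Corin*, with *Nppb* and *Nppc* listed at 0. *Npr1* stood at the 97.0th percentile of all listed genes by its mean WT level and *Npr2* at the 90.4th, whereas *Npr3* was at the 49.8th. Neighbors in this order overlapped in their WT levels for *Furin* and *Ide*, for *Mme* and *Npr3*, and for *Nppa* and *Corin*. The levels of *Npr1*, *Npr2*, *Furin* and the other genes in each library are plotted below by genotype.

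**Figure D1:**
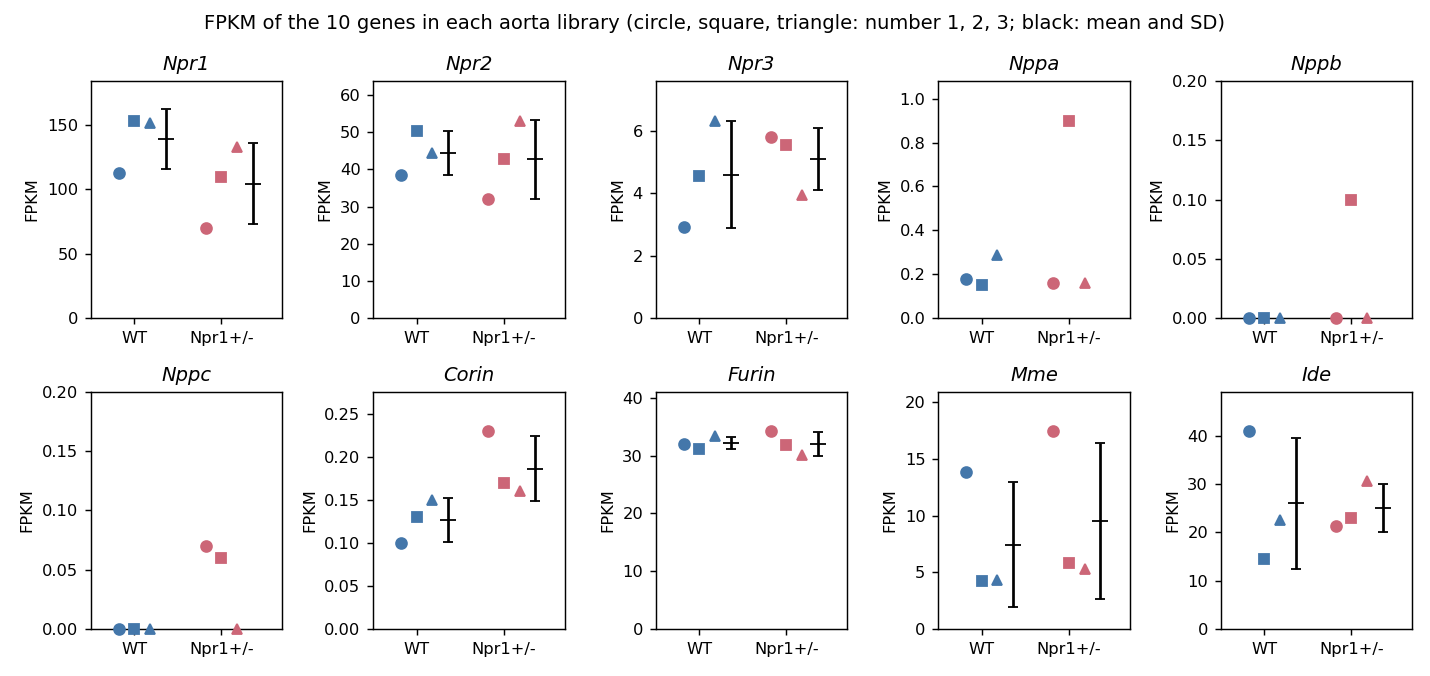
FPKM of the 10 natriuretic peptide genes (vertical axes, each from 0) in 3 WT and 3 *Npr1*+/- libraries, where circles, squares and triangles are the libraries numbered 1, 2 and 3 and black bars are mean and SD of the 7 genes that were tested. *Npr1* lies between 70.35 and 153.33 FPKM and the 3 peptide genes at or below 0.9 FPKM, and both circles of *Mme* lie above its other points.

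*Npr1* (NCBI gene 18160, chromosome 3 of GRCm38 from 90450591 to 90465866, minus strand) is the receptor for ANP and BNP and the gene that was targeted. The FPKM values were 112.43, 153.33 and 151.51 in WT 1 to 3, against 70.35, 109.92 and 132.95 in *Npr1*+/- 1 to 3. The 2 lowest values were thus those of *Npr1*+/- 1 and 2, while *Npr1*+/- 3 was above WT 1, so that the groups overlapped. Normalized CPM averaged 565 ± 98.3 (SD, n = 3) in WT, against 424 ± 118 (SD, n = 3) in *Npr1*+/- aortas, or 75.1% of the WT mean. This did not exceed the spread of the libraries (exact permutation test of log2 CPM, two-sided, p = 0.2, where 3 libraries against 3 allow no p under 0.1). By edgeR's quasi-likelihood test, *Npr1* had a log2 fold change of -0.41 (standard error 0.27, adjusted p = 0.999 after Benjamini-Hochberg adjustment over all tested genes), and its 95% interval ran from 47.6% to 118% of WT. A level of 50% of WT, that of a gene with 1 silent copy, and an unchanged level both lay inside this interval.

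The labels number the libraries but do not say that equal numbers belong together. Deviations from the genotype mean correlated at 0.64 between the libraries numbered 1. For the numbers 2 and 3 the correlations were 0.39 and 0.24, within the range of different numbers, from -0.58 to 0.44. The fit was repeated with the number as a block. Within the numbers 1, 2 and 3, *Npr1* in the *Npr1*+/- library stood at 65.2%, 73.9% and 83.2% of the WT library. It was the only one of the 7 tested members that was lower in all 3 pairs, which 16.9% of all tested genes were. With the block, the log2 fold change was -0.44 (95% interval from 57.6% to 94.4% of WT, edgeR unadjusted p = 0.0221, adjusted p = 0.311). Without both libraries numbered 1 it was -0.35 (edgeR without the block, unadjusted p = 0.0327, adjusted p = 0.38), or -0.35 with the block (edgeR unadjusted p = 0.0832, adjusted p = 0.634), and without *Npr1*+/- 1 alone it was -0.22. Per 1000 CPM of the smooth muscle markers, *Npr1* had 21.59, 17.21 and 16.45 CPM in WT 1 to 3, against 23.02, 13.47 and 15.22 CPM in *Npr1*+/- 1 to 3. On this scale the library with the lowest *Npr1* had the highest value (exact two-sided permutation test, p = 0.6). The scale was added after the values were seen and covers smooth muscle only. The summed endothelial markers were instead above every WT library in each *Npr1*+/- library, and *Npr1* was not scaled to them. The part of either cell type in the level of *Npr1* was not tested.

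*Npr2* (NCBI gene 230103, chromosome 4 from 43631935 to 43651244, plus strand) encodes the receptor for CNP. The FPKM values were 38.37, 50.31 and 44.45 in WT 1 to 3, against 32.08, 42.87 and 53.13 in *Npr1*+/- 1 to 3. The *Npr1*+/- libraries held both the lowest and the highest value. Between genotypes, its log2 fold change was -0.06 (standard error 0.21, 95% interval from 68.1% to 135% of WT, edgeR adjusted p = 0.999). It ranged from -0.22 to 0.08 over the fits that left out 1 library, so that no direction was shown.

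*Npr3* (NCBI gene 18162, chromosome 15 from 11839896 to 11907287, minus strand) encodes the clearance receptor. The FPKM values were 2.92, 4.55 and 6.33 in WT 1 to 3, against 5.8, 5.54 and 3.95 in *Npr1*+/- 1 to 3. Every *Npr1*+/- value lay within the WT range. The estimated counts of *Npr3* were whole in *Npr1*+/- 1 and fractional in the other 5 libraries. The *Npr1*+/- library of the pair stood at 207% of WT for number 1 and at 58.7% for number 3. The log2 fold change was 0.16 (standard error 0.32, 95% interval from 66.3% to 188% of WT, edgeR adjusted p = 0.999), and it was -0.21 without both libraries numbered 1.

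Since *Npr1* and *Npr2* varied together over the libraries, the make-up of the receptors was compared within each library. *Npr1* took 73.1%, 73.7% and 74.9% of the summed receptor FPKM in WT 1 to 3, against 65.0%, 69.4% and 70.0% in *Npr1*+/- 1 to 3. All 3 *Npr1*+/- libraries lay below all WT libraries, with means of 68.1% ± 2.72 (SD, n = 3) and 73.9% ± 0.905 (SD, n = 3), and the p of 0.1 is the smallest the exact two-sided permutation test can give here. *Npr2* took 23.7% ± 1.55 (SD, n = 3) in WT, against 28.2% ± 1.30 (SD, n = 3) in *Npr1*+/- aortas. For every 100 FPKM of *Npr1* there were 34.1, 32.8 and 29.3 FPKM of *Npr2* in WT 1 to 3, against 45.6, 39.0 and 40.0 in *Npr1*+/- 1 to 3, again without overlap (exact two-sided permutation test, p = 0.1). This ratio was added after the values were seen, and of the tested genes with a value above 0 in every library, 5.49% had a ratio to *Npr2* whose groups did not overlap. The share of *Npr1* was also lower without both libraries numbered 1, with a difference of -4.58 percentage points, compared with -5.77 over all libraries.

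**Figure D2:**
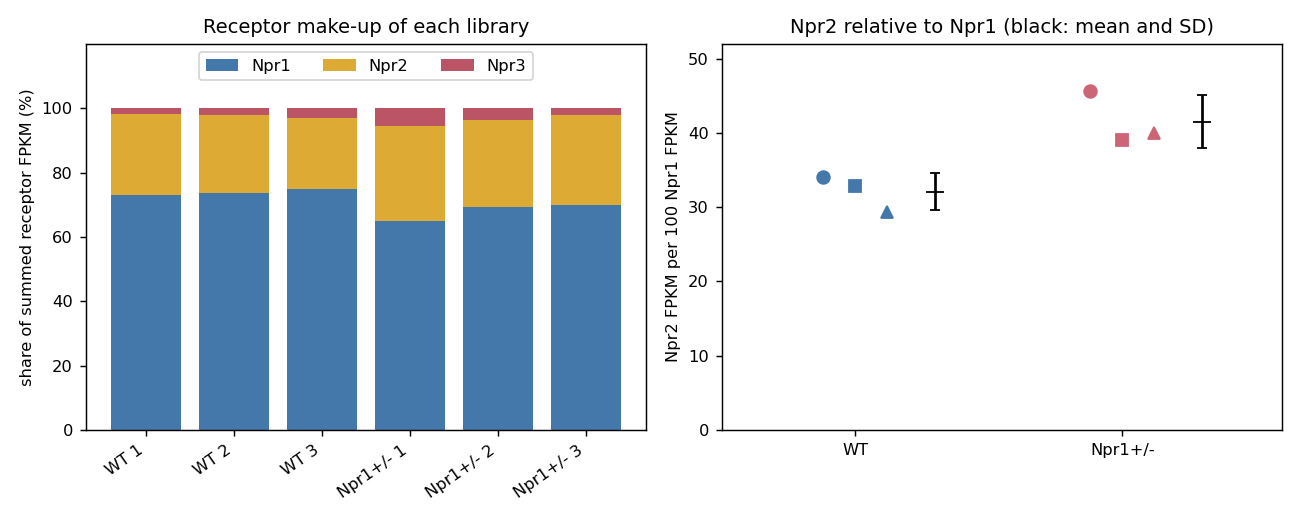
Left, the share of *Npr1*, *Npr2* and *Npr3* in the summed receptor FPKM of each library (vertical axis in percent); right, *Npr2* FPKM per 100 FPKM of *Npr1*, with circles, squares and triangles for the libraries numbered 1, 2 and 3 and black bars for mean and SD (n = 3). The 3 *Npr1*+/- points lie between 39.0 and 45.6, above the WT points, which lie between 29.3 and 34.1.

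The clearance receptor was a small part of the 3, with 2.41% ± 0.644 (SD, n = 3) of the summed FPKM in WT, against 3.65% ± 1.65 (SD, n = 3) in *Npr1*+/- aortas. Per 100 FPKM of *Npr1*, *Npr3* had 2.60, 2.97 and 4.18 FPKM in WT 1 to 3, against 8.24, 5.04 and 2.97 FPKM in *Npr1*+/- 1 to 3. The mean was higher in *Npr1*+/- aortas by 2.17, but the groups overlapped (exact permutation test of the log2 ratio, two-sided, p = 0.2). This difference rested on *Npr1*+/- 1, and was 0.758 without that library and 0.433 without both libraries numbered 1.

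The genes of the peptides were near or below the floor of 3 counts. *Nppa* (NCBI gene 230899, chromosome 4 from 148000722 to 148002079, plus strand), the precursor of ANP, had 2, 2 and 4 counts in WT 1 to 3, against 2, 12 and 2 counts in *Npr1*+/- 1 to 3. Only WT 3 and *Npr1*+/- 2 were above 3 counts, and the sum of 16 counts in *Npr1*+/- against 8 in WT rested on 1 library. *Myl7*, a marker of atrial muscle, had 0.885 CPM in *Npr1*+/- 2 and was higher in *Npr1*+/- 1 (2.065 CPM), where *Nppa* had 2 counts. *Nppb* (NCBI gene 18158, chromosome 4 from 147985788 to 147987205, plus strand), the precursor of BNP, had 1 count in *Npr1*+/- 2 and 0 in the other 5 libraries. *Nppc* (NCBI gene 18159, chromosome 1 from 86666291 to 86670571, minus strand), the precursor of CNP, had 1 count in each of *Npr1*+/- 1 and 2 and 0 in the other 4. A difference in *Nppb* or *Nppc* was not detectable at this depth, no fold change is given for them, and none of the 3 peptide genes passed the filter on low counts.

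Of the proteases that release the peptides, *Furin* was the steadiest member and *Corin* was close to the limit. *Furin* (NCBI gene 18550, chromosome 7 from 80388585 to 80405436, minus strand) had 31.99, 31.19 and 33.35 FPKM in WT 1 to 3, against 34.24, 31.87 and 30.07 in *Npr1*+/- 1 to 3. Its highest library was 1.21 times its lowest in CPM, and its coefficient of variation of 7.11% over the 6 libraries compares with a median of 19.4% over all tested genes. Its log2 fold change was 0.02 (standard error 0.14), with a 95% interval from 80.6% to 127% of WT (edgeR adjusted p = 0.999). In the fit without the block, this was the narrowest interval of the 7 tested members.

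*Corin* (NCBI gene 53419, chromosome 5 from 72300025 to 72504473, minus strand) had 6, 9 and 12 counts in WT 1 to 3, against 15, 13 and 11 counts in *Npr1*+/- 1 to 3. The summed counts were 27 in WT and 39 in *Npr1*+/- aortas, and the groups overlapped in CPM, since WT 3 (0.741 CPM) was above *Npr1*+/- 3 (0.699 CPM). In FPKM the highest WT value was 0.15 and the lowest *Npr1*+/- value 0.16. These are next to each other at the rounding of the values, so no separation is read from them. Its log2 fold change was 0.56 (standard error 0.40), with a 95% interval from 76.5% to 285% of WT (edgeR adjusted p = 0.999). It was 0.23 without both libraries numbered 1.

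Of the peptidases, *Mme* (NCBI gene 17380, chromosome 3 from 63241537 to 63386030, plus strand) encodes neprilysin. The FPKM values were 13.84, 4.21 and 4.28 in WT 1 to 3, against 17.43, 5.83 and 5.29 in *Npr1*+/- 1 to 3. Both libraries numbered 1 were well above the other 4, and the coefficient of variation over the 6 libraries was 68.2%. Without the block, *Mme* had a log2 fold change of 0.39 with a standard error of 0.65 (edgeR adjusted p = 0.999). In that fit single libraries set the value, which was -0.44 without *Npr1*+/- 1 and 1.18 without WT 1. Within the numbers 1, 2 and 3, the *Npr1*+/- library stood at 131.7%, 143.7% and 117.5% of the WT library, and 17.5% of all tested genes were higher in all 3 pairs. With the block, the value was 0.38 (standard error 0.11, 95% interval from 109% to 157% of WT, edgeR unadjusted p = 0.0102, adjusted p = 0.244). It was 0.38 as well without both libraries numbered 1 (standard error 0.13, edgeR without the block, unadjusted p = 0.0227, adjusted p = 0.355, and with it unadjusted p = 0.0455, adjusted p = 0.541), where 23.98 and 25.61 CPM in WT 2 and 3 stood against 34.45 and 30.1 CPM in *Npr1*+/- 2 and 3.

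The sum of the adipocyte markers moved with *Mme*. Their summed CPM was 3976, 640.5 and 916.7 in WT 1 to 3, against 5538, 1518 and 1361 in *Npr1*+/- 1 to 3, so that in every pair the sum too was above WT. Singly, *Lep* did not follow the sum, with 9.399, 3.391 and 21.54 CPM in WT 1 to 3, against 27.84, 17.7 and 6.033 CPM in *Npr1*+/- 1 to 3. *Retn* was higher in *Npr1*+/- 2 (93.43 CPM) than in WT 1 (74.61 CPM). All 8 were above 3 counts in every library, and *Adipoq*, the gene of adiponectin, had between 116 and 923 CPM. Per 1000 CPM of these markers, *Mme* had 28.5 ± 8.76 CPM (SD, n = 3) in WT, against 21.2 ± 2.06 CPM (SD, n = 3) in *Npr1*+/- aortas (exact two-sided permutation test, p = 0.3). The part of the adipocyte markers in the difference of *Mme* was not tested further.

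*Ide* (NCBI gene 15925, chromosome 19 from 37268743 to 37337852, minus strand) encodes the insulin-degrading enzyme. The FPKM values were 40.99, 14.51 and 22.62 in WT 1 to 3, against 21.43, 22.98 and 30.69 in *Npr1*+/- 1 to 3. WT libraries were both the highest and the lowest. Between genotypes, its log2 fold change was -0.05 (standard error 0.37, 95% interval from 52.4% to 178% of WT, edgeR adjusted p = 0.999). The direction depended on single libraries, since it was 0.42 without WT 1 and 0.01 without *Npr1*+/- 1, and it was 0.50 without both libraries numbered 1 (edgeR unadjusted p = 0.0743, adjusted p = 0.466). With the block and without these 2 libraries it was 0.53 (standard error 0.17, edgeR unadjusted p = 0.0083, adjusted p = 0.318), while over all libraries with the block it was 0.07 (unadjusted p = 0.805).

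**Figure D3:**
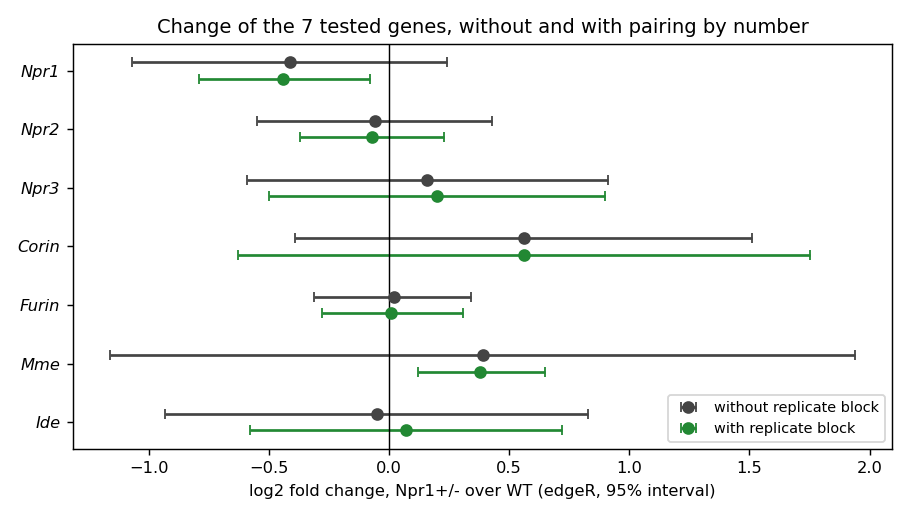
Log2 fold change of *Npr1*+/- over WT (horizontal axis) for the 7 members that were tested, with 95% intervals from edgeR's quasi-likelihood fit without (gray) and with (green) the replicate number as a block. All gray intervals include 0, and with the block those of *Npr1* (-0.79 to -0.08) and *Mme* (0.12 to 0.65) do not.

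Of the 7 members that passed the filter on low counts, 0 were called (adjusted p under 0.05, log2 fold change of 0.5 or more in either direction), where edgeR's quasi-likelihood test called 0% of the 13938 genes tested, with or without the block. DESeq2 also called 0 of the members, with or without the block, and with the block it called 1.81% of all genes tested and gave *Npr1* an adjusted p of 0.0738. At an unadjusted p under 0.05, 0 of the 7 members passed without the block (2.96% of all genes) and 2, *Npr1* and *Mme*, passed with it (12.4% of all genes). In 0 of the 7 members were the groups free of overlap in CPM, against 7.48% of all genes. A log2 fold change above 0 was found in 4 of the 7, with a median of 0.02, and the median of all tested genes was 0.01.

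The genes whose log2 CPM followed that of *Npr1* most closely over the 6 libraries were *Tctn1*, *Cercam*, *Gucy1a1*, *Plxnb2* and *Emc8*, with Pearson's r between 0.997 and 0.9996. *Gucy1a1* encodes the alpha 1 subunit of soluble guanylyl cyclase, the receptor of nitric oxide, and had 35.35, 51.98 and 53.89 FPKM in WT 1 to 3, against 20.86, 35.7 and 43.16 FPKM in *Npr1*+/- 1 to 3. Its lowest value was that of *Npr1*+/- 1, as for *Npr1* and for the smooth muscle markers. The 6 points share the difference between the libraries numbered 1 and the others, and 383 of the 13937 genes compared had an r of at least 0.95. Among the members, r with *Npr1* was 0.87 for *Npr2* and -0.89 for *Mme*, and between -0.55 and -0.12 for *Npr3*, *Ide*, *Furin* and *Corin*.

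Around the 10 genes, 60 genes of the pathway were listed by their role, and 59 of them were analysed. Without the block, edgeR's quasi-likelihood test called 0 of the 45 that were tested, and 2, *Pde9a* and *Plcb2*, had an unadjusted p under 0.05. The log2 fold change was above 0 in 13 and below 0 in 32, with a median of -0.20 against 0.01 over all tested genes. With the block, 17 of the 45 had an unadjusted p under 0.05, where 12.4% of all genes did, and 0 were called. DESeq2 called 0 of the 55 genes of the list that it tested without the block, where it called 16 of 16979 in all. With the block it called 5 of 46, where it called 1.81% of all genes. The list was chosen with earlier results of these data known, so these shares are not read as enrichment of the list.

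The other receptor cyclases and their ligands were hardly detected, and none of the 8 passed the filter on low counts. *Ostn*, the gene of osteocrin, which binds NPR3, had 7 counts over the 6 libraries, and *Gucy2g* had 8. Among the other peptidases that process or degrade vasoactive peptides, 4 of the 7 tested genes were above 0, and the highest was *Ece1*, an endothelin converting enzyme, with a mean FPKM of 34.5 and a log2 fold change of 0.23 (standard error 0.22). *Pcsk7*, a relative of furin, had a mean FPKM of 31.1 and a log2 fold change of 0.20 (standard error 0.33). Both were within the spread between libraries.

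Soluble guanylyl cyclase makes cGMP on nitric oxide, and its main subunits *Gucy1b1* and *Gucy1a1* were below WT in each pair, while *Gucy1a2* had a log2 fold change of -0.05. *Gucy1b1* had 41.2, 67.11 and 81.13 FPKM in WT 1 to 3, against 22.23, 54.52 and 53.39 FPKM in *Npr1*+/- 1 to 3. Its log2 fold change was -0.55 without the block and -0.59 with it (edgeR unadjusted p = 0.00475, adjusted p = 0.19). *Gucy1a1* had a log2 fold change of -0.53 with the block (edgeR unadjusted p = 0.00364, adjusted p = 0.172). DESeq2 with the block called *Gucy1b1* and *Gucy1a1*, with adjusted p of 0.0298 and 0.024. The summed smooth muscle markers were also below WT in each pair, with 20970, 35500 and 38460 CPM in WT 1 to 3, against 12830, 33530 and 34570 CPM in *Npr1*+/- 1 to 3, and their part in these values was not tested.

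Among the kinases of cGMP and their substrates, 8 of 11 genes were below 0, with a median of -0.26. *Irag1*, a substrate of the kinase PRKG1 that restrains calcium release, had a log2 fold change of -0.56 with the block (adjusted p = 0.241 from edgeR, and 0.0305 from DESeq2, which called it). The potassium channel gene *Kcnma1* had -0.43 with the block (unadjusted p = 0.0121 from the same edgeR test), while *Rgs2*, which limits signals of Gq coupled receptors, had 0.40 (unadjusted p = 0.0309). *Hspb6* and *Ppp1r12a*, the highest genes of the group with mean FPKM of 148.7 and 126.6, had -0.37 and -0.26 without the block and an unadjusted p of 0.272 and 0.524 from edgeR. The smooth muscle markers were lowest in *Npr1*+/- 1, as were *Hspb6* (70.72 FPKM), *Irag1* (26.35 FPKM) and *Kcnma1* (5.23 FPKM), and their part in these values was not tested.

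The genes listed as phosphodiesterases lay on both sides of 0, and all but *Pde6d* encode enzymes that break down cGMP or cAMP. With the block, *Pde3b*, *Pde2a* and *Pde9a* had log2 fold changes of 0.82, 0.65 and 0.96, and *Pde5a*, *Pde3a*, *Pde1a* and *Pde1c* had -0.56, -0.47, -0.30 and -1.92, each with an edgeR unadjusted p under 0.05. The value of *Pde1c* rested on a mean of 0.293 FPKM, of which WT 1 had 1.1. *Pde3b* had the smallest p of the list (standard error 0.11, adjusted p = 0.0743 from edgeR with the block, and 1.48e-05 from DESeq2 with the block). Its FPKM values were 34.93, 10.06 and 9.31 in WT 1 to 3, against 61.12, 17.56 and 16.54 in *Npr1*+/- 1 to 3. They were highest in both libraries numbered 1, as *Mme* and the sum of the adipocyte markers were. DESeq2 with the block also called *Pde2a* (adjusted p = 0.0453), with 14.16, 7.68 and 5.55 FPKM in WT 1 to 3, against 24.66, 9.01 and 10.5 FPKM in *Npr1*+/- 1 to 3. *Pde9a*, an enzyme with high affinity for cGMP, was higher in each *Npr1*+/- library than in the highest WT library, with 1.79, 1.37 and 0.85 FPKM in WT 1 to 3, against 3.51, 1.82 and 2.39 FPKM in *Npr1*+/- 1 to 3 (unadjusted p = 0.0416 and adjusted p = 0.999 from edgeR without the block). Of all tested genes, 7.48% had groups without overlap in CPM. The summed endothelial markers were also above every WT library in each *Npr1*+/- library. Singly, *Cdh5*, *Tek*, *Kdr*, *Emcn* and *Cldn5* overlapped between the groups, while *Pecam1*, *Tie1* and *Vwf* did not. The part of the endothelial markers in the values of *Pde2a* and *Pde9a* was not tested. *Pde6d* was steady, with a log2 fold change of -0.08 (standard error 0.17).

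**Figure D4:**
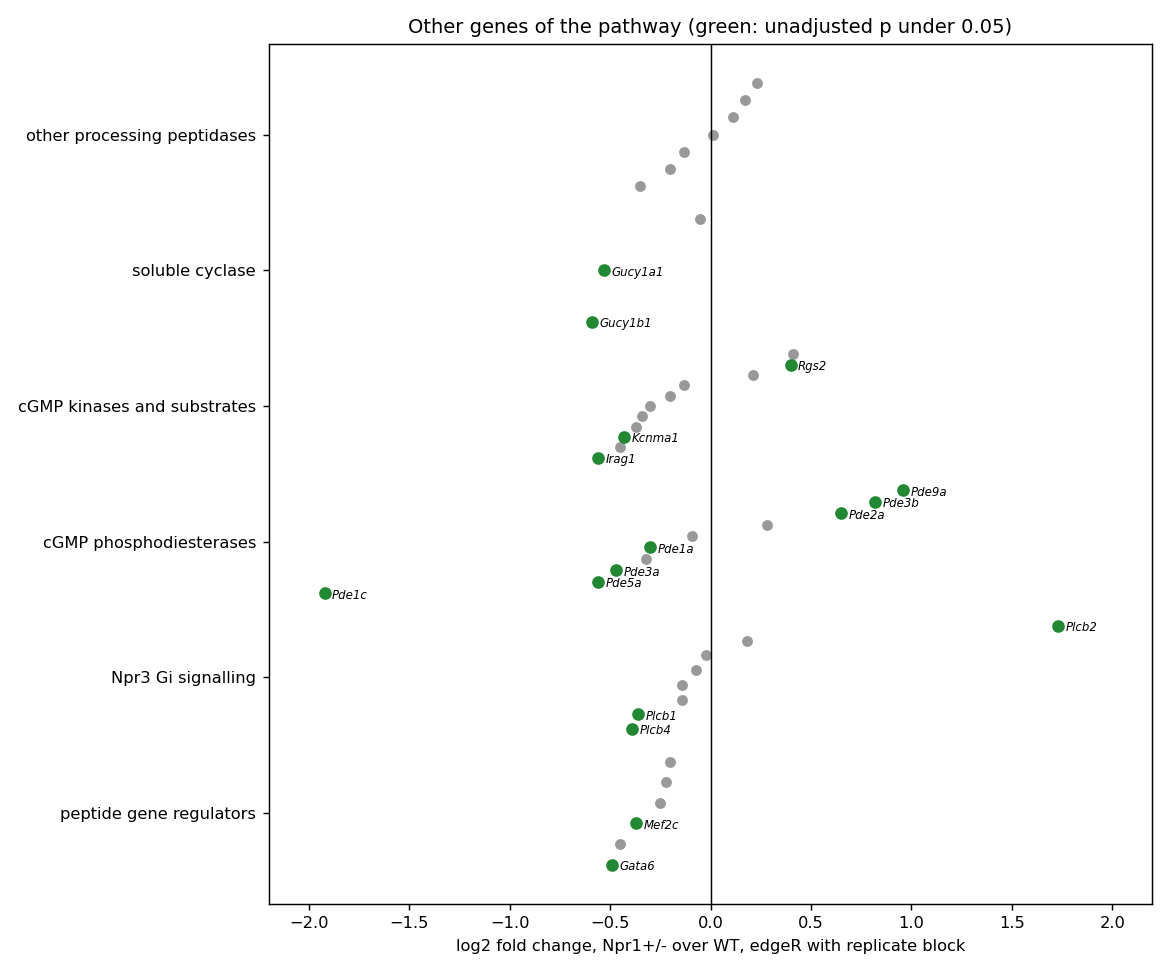
Log2 fold change of *Npr1*+/- over WT (horizontal axis, edgeR with the replicate block) of the 45 tested genes of the pathway, in rows by role. Green points with names are the 17 genes with an unadjusted p under 0.05, none of which was called after adjustment over all genes, and 3 of the phosphodiesterases lie right of 0 while 4 lie left of it.

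Genes of inhibitory G proteins and beta phospholipases were listed by family for the signals of NPR3, and which of them NPR3 uses in the aorta was not tested. Among them, the inhibitory G protein gene *Gnai2* was the highest with a mean FPKM of 291.7 and had a log2 fold change of -0.13 (standard error 0.22). The phospholipase genes *Plcb4* and *Plcb1* had -0.39 and -0.36 with the block (unadjusted p = 0.0275 and 0.0348 from edgeR's quasi-likelihood test). *Plcb3*, with a mean FPKM of 26.43, had -0.02 with the block (unadjusted p = 0.843 from the same test). *Plcb2* had 1.69 without the block (unadjusted p = 0.0318 from edgeR), on a mean of 0.117 FPKM. Of the regulators of the peptide genes, *Gata4* and *Nkx2-5*, which drive *Nppa* and *Nppb* in the heart, had 15 and 3 counts over the 6 libraries and were not tested. *Gata6* was the third of the group by level, with a mean FPKM of 29.1, and had a log2 fold change of -0.49 with the block (edgeR unadjusted p = 0.00324, adjusted p = 0.162), and *Mef2c* had -0.37 (unadjusted p = 0.0343). *Myocd* and *Srf*, with mean FPKM of 40.9 and 34.5, had -0.20 and -0.21 without the block (unadjusted p = 0.693 and 0.41 from edgeR). *Plcb4*, *Plcb1*, *Gata6* and *Mef2c* were all lowest in *Npr1*+/- 1, with 29.63, 2.37, 15.73 and 9.16 FPKM, as the smooth muscle markers were. The sum of these markers was lower in each pair, though *Acta2* and *Cnn1* were higher in *Npr1*+/- 2 than in WT 2. The part of the markers in these values was not tested.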

How the data were processed

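RNA of whole aortas was sequenced on the BGISEQ-500 platform. Reads were cleaned by the authors with SOAPnuke, mapped on coding genes with Bowtie2 and quantified by RSEM. The authors deposited estimated counts, not normalized, and FPKM, which RSEM scales by gene length and library total. The header names the latter only as expression, and the gene length that count and value imply differed by less than 5% across libraries for 87.4% of 4880 genes with at least 500 counts. The strand setting is not given in the sources used here, so reads of *Npr1*, *Npr2*, *Nppa*, *Corin* and *Furin* cannot be told apart from those of antisense genes that overlap them, nor those of *Npr3* from a noncoding gene on the other strand. Submitters' processing notes name mm10, and coordinates are those of GENCODE M21 on GRCm38. Symbols were matched by NCBI identifier for 18070 of 18191 genes. *Irag1* was matched by its older symbol Mrvi1, and *Mep1b* was not analysed here. The authors' group means were not used.

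Estimated counts were rounded and fitted across all 13938 genes with R 4.3.3 and edgeR 4.0.16 (TMM, filter with a minimum count of 10, quasi-likelihood test, Benjamini-Hochberg adjustment over all genes). edgeR stands in for the DESeq2 of the study's methods. Calls needed an adjusted p under 0.05 with a log2 fold change of 0.5 or more in either direction. Log2 CPM used a prior count of 2. The code of the fits was run on simulated counts with planted changes larger than those of the tested members. The simulation held no difference shared by libraries of equal number. It therefore cannot show how well changes of the size seen here are found, with or without the block. Alternatives used DESeq2 1.42.0, its size factors, no filter, limma 3.58.1 on log2(FPKM + 0.1) and log2(FPKM + 1) above a mean FPKM of 0.1, the replicate number as a block, and fewer libraries. DESeq2 with the block, the block without the libraries numbered 1, the ratio of *Npr2* to *Npr1*, and the ratios to marker sums were added after seeing the data.

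The labels give the replicate numbers. Deviations from the genotype mean correlated at 0.64, 0.39 and 0.24 between libraries with the numbers 1, 2 and 3, and between -0.58 and 0.44 for different numbers. Nothing in the labels says that each library is 1 mouse, so p-values measure the spread between these libraries. Counts carry no molecular identifiers, so limits from 3 counts cover counting error only.

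The members and lists were chosen with earlier results of these data known. Named pathway genes are the 2 with the highest mean FPKM in each role and those with an unadjusted p under 0.05 with or without the block. The 5 genes closest to *Npr1* by Pearson's r were also named, as were marker genes where their list is given. *Gata4*, *Nkx2-5*, *Gucy1a2* and *Plcb3* were picked once their values were known.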

Additional observations from a re-analysis of the deposited data

How the results depend on the processing

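No member was called in any of the 15 alternatives, and over all 6 libraries edgeR called 0 genes with or without the replicate block. The log2 fold change of *Npr1* was negative in all of them, between -0.60 and -0.22 on leaving out single libraries, and its share of receptor FPKM was lower in *Npr1*+/- aortas throughout. The number of genes called was 0 in the edgeR fits of all libraries and on leaving out single libraries. It was 16 with DESeq2, 265 with DESeq2 and the replicate block, 1 without both libraries numbered 1, and 33 without them and with the replicate block. Of the listed pathway genes, 5 were called by DESeq2 with the replicate block. The cause of these differences was not tested.

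Several members changed direction. *Npr3* was at -0.21 without both libraries numbered 1, with or without the replicate block, and between -0.09 and 0.47 on leaving out single libraries. *Furin* was at -0.01 with limma at either pseudocount and at -0.07 without both libraries numbered 1, with or without the block, and ranged from -0.07 to 0.08. *Ide* was at 0.07 with the replicate block in edgeR and in DESeq2, at 0.06 and 0.05 with limma at pseudocounts of 0.1 and 1, and at 0.50 and 0.53 without both libraries numbered 1, without and with the block. On leaving out single libraries it ranged from -0.35 to 0.42, *Npr2* from -0.22 to 0.08 and *Mme* from -0.44 to 1.18, where *Npr1*+/- 1 and WT 1 set the ends for *Mme*. Depth limits *Nppa*, *Nppb*, *Nppc* and *Corin*, which had at most 15 counts in any library.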
